A study of Mus musculus with 12 samples.

Results

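The genes described here encode the first steps of signalling from the T cell receptor. Those named were Cd3d, Cd3e, Cd3g, Cd247, Lck, Zap70, Lat, Lcp2 and Plcg1, 9 genes in all. They were chosen by name, with earlier results of these data known. For 7 of the 9 the array had a row paired with that symbol and no other, out of 22180 genes with such a row. Cd247 and Lck had none and were not analysed here. Each of the 7 had exactly 1 such row. Plcg1 had 1 further row that it shares with Zhx3, which was not used.

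The receptor's own antigen-binding chains cannot signal into the cell. The CD3 chains and the zeta chain (Cd247) carry tyrosine motifs for them, which the kinase Lck phosphorylates and to which the kinase ZAP-70 then binds. ZAP-70 phosphorylates the adaptors LAT and SLP-76 (Lcp2), and these hold phospholipase C-gamma (Plcg1), which makes the messengers that release calcium and activate Ras and protein kinase C. In Treg cells this signal is known to be needed for suppressive activity, and the kinase mTOR is among the pathways it switches on together with costimulation and IL-2.

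The cells were central Treg (cTreg) cells, sorted as YFP+CD4+CD62LhiCD44lo cells from spleen and peripheral lymph nodes of Foxp3-YFP+ transgenic mice backcrossed to C57BL/6, with YFP marking cells that express Foxp3. RNA was measured on 12 GeneChip Mouse Gene 2.0 ST arrays, 3 for each of 4 groups, which the submitters give as biological triplicates. One group was unstimulated (0 h, also labelled as in DMSO), and the other groups were activated for 20 h with anti-CD3 and anti-CD28 antibodies and IL-2 in the presence of DMSO (the vehicle), 50 nM Torin 1 or 500 nM PP242. Both compounds inhibit the mTOR kinase by competing with ATP, and their doses differ. Since cells kept in culture without the antibodies were not among the groups, activation as named here cannot be told apart from 20 h of culture with IL-2. The study used young mice of both sexes in general, and the labels do not give the age, the sex or the number of mice behind each of these samples.

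Values are log2 intensities that the authors computed by robust multichip averaging (RMA). A value says how bright a gene's probes were, and changes are taken only between arrays for the same gene. Where a level is set against the median of all values or against other genes, it is a rough guide to brightness only. A change is the difference of 2 group means on that scale, with its standard error (SE) and a 95% interval, from 1 limma fit of all 12 arrays. The p of each gene was adjusted by the Benjamini-Hochberg method across the 22180 genes, and those under 0.05 are called higher or lower. With 3 arrays in each group the number of arrays limits the precision: the median SE of a member's change was 0.10.

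All 10 measured Treg markers lay above the median of all values (5.01), among them Il2ra at 11.81 to 12.01, and the mean of the list ran from 10.26 to 10.34 in the unstimulated arrays, 10.03 to 10.12 with DMSO, 10.15 to 10.21 with Torin 1 and 10.06 to 10.21 with PP242. Foxp3 itself averaged 11.96 in unstimulated cells, 11.35 with DMSO, 11.64 with Torin 1 and 11.65 with PP242. Of the 10 Treg markers, Ikzf4, Foxp3, Nrp1 and Ctla4 were called lower with DMSO than in unstimulated cells, and Cd4 higher. Against DMSO, Ikzf4 was called higher with Torin 1, and Nrp1, Ctla4, Ikzf4 and Foxp3 with PP242. Some markers of other cells, which a sort can leave behind, also differed between DMSO-treated and unstimulated cells, in both directions. Of 4 CD8 T cell markers, Crtam was called higher (means 4.13 and 4.76), Cd8a and Eomes had higher means without a call (4.13 and 4.73, 4.52 and 4.96) and Cd8b1 a lower one (8.08 and 7.68). The mean of this list ran from 5.09 to 5.29 in the unstimulated arrays, 5.36 to 5.63 with DMSO, 5.28 to 5.54 with Torin 1 and 5.04 to 5.24 with PP242. Of 6 platelet markers 3 were called lower, Itgb3 (7.39 and 6.38), Itga2b (6.49 and 5.84) and Treml1, and the list's mean ran from 5.58 to 5.69 in unstimulated arrays and from 5.21 to 5.27 with DMSO, 5.45 to 5.51 with Torin 1 and 5.42 to 5.51 with PP242. Cd68 (7.41 and 6.65) was the 1 of 12 myeloid markers called, and both measured erythroid markers, Slc4a1 and Epb42, were called lower. Of 6 NK markers Prf1 (5.89 and 6.54) was higher and Ncr1 lower, and of 9 B cell markers Ms4a1 was higher and Cd79b lower. The means of Crtam, Slc4a1, Epb42, Ncr1 and Ms4a1 lay under the median of all values (5.01) in both groups. None of the 3 gamma delta T cell markers, of which Sox13 was the brightest, was called. The part of these differences in the results below was not tested. In bulk RNA, fewer cells of a type and less RNA per cell cannot be told apart.

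Activation raised most of the measured genes by a similar, small amount and Zap70 by more. Of the 7 genes, 5 were higher in DMSO-treated activated cells than in unstimulated cells, by 1.30-fold (Cd3g) to 2.33-fold (Zap70), none was lower, and Cd3d and Plcg1 were not called. Of all genes tested, 11.8% were called higher and 12.1% lower in this comparison. The arrays of the groups did not overlap for any of the 7 genes, and 38.5% of all genes had no overlap. The median change of the 7 genes was 0.476, against -0.0354 over all genes. The shares over all genes, here and below, count all 22180, of which 12371 passed a filter on dim genes. The 7 genes lay between percentiles 88.4 and 99.8 of brightness in the arrays. Shares among genes of like brightness were not computed.

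The CD3 delta, epsilon and gamma chains pair with each other in the receptor complex and are needed for it to reach the cell surface. Cd3e (transcript cluster 17526464) gave 10.51, 10.80 and 10.79 in the unstimulated arrays (replicates 1 to 3, in this order throughout), 11.24, 11.15 and 11.16 with DMSO, 11.07, 11.18 and 11.23 with Torin 1 and 11.10, 11.13 and 11.12 with PP242. The 9 activated arrays all lay above the 3 unstimulated ones, of which replicate 1 was the lowest. The change on activation was 0.48 (SE 0.101, adjusted p = 0.00287), or 1.40-fold.

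Cd3g (transcript cluster 17526456) gave 10.64, 10.69 and 10.61 in unstimulated cells, 11.10, 11.05 and 10.92 with DMSO, 10.87, 11.00 and 10.94 with Torin 1 and 11.09, 11.22 and 11.25 with PP242. Again each activated array was above each unstimulated one, and the PP242 arrays were all above the Torin 1 arrays. Activation changed it by 0.38 (SE 0.0937, adjusted p = 0.00896), or 1.30-fold.

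Cd3d (transcript cluster 17516691) gave 10.08, 10.38 and 10.46 in unstimulated cells, 10.66, 10.75 and 10.57 with DMSO, 10.53, 10.76 and 10.67 with Torin 1 and 10.71, 10.77 and 11.04 with PP242. The groups did not overlap between unstimulated and activated arrays, but the unstimulated arrays spread over 0.387, of which replicate 1 made the most. The difference of 0.35 on activation (SE 0.126) had an adjusted p of 0.0562 and was not called. It was called in 7 of 22 alternative settings, among them quantile normalization and the fit without unstimulated replicate 3.

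Zap70 (transcript cluster 17211867), the kinase that docks on phosphorylated receptor chains, had the largest change of the 7 genes on activation. It gave 8.37, 8.61 and 8.52 in unstimulated cells, 9.76, 9.78 and 9.63 with DMSO, 9.58, 9.52 and 9.44 with Torin 1 and 9.26, 9.02 and 9.21 with PP242. The 4 groups lay in this order with no overlap between any of them: unstimulated lowest, then PP242, then Torin 1, then DMSO. The change on activation was 1.22 (SE 0.103, 95% interval 1.00 to 1.44, adjusted p = 1.73e-06), or 2.33-fold.

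Lat (transcript cluster 17496150), the membrane adaptor, gave 10.89, 11.08 and 11.01 in unstimulated cells, 11.50, 11.56 and 11.43 with DMSO, 11.50, 11.39 and 11.40 with Torin 1 and 11.38, 11.45 and 11.66 with PP242. The 9 activated arrays lay above the 3 unstimulated ones and overlapped among themselves. Activation changed it by 0.50 (SE 0.103, adjusted p = 0.00236), or 1.42-fold.

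Lcp2 (transcript cluster 17248380) encodes SLP-76, which joins the LAT complex and holds Vav and Tec family proteins beside it. It gave 10.16, 10.11 and 10.11 in unstimulated cells, 10.66, 10.66 and 10.48 with DMSO, 10.74, 10.60 and 10.66 with Torin 1 and 10.82, 10.78 and 10.66 with PP242. The unstimulated arrays spanned 0.0498 and lay below all others. The change on activation was 0.48 (SE 0.0948, adjusted p = 0.00199), or 1.39-fold.

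Plcg1 (transcript cluster 17379037), the enzyme at the end of this chain, had the only difference below 0 on activation. It gave 8.42, 8.51 and 8.66 in unstimulated cells, 8.34, 8.35 and 8.30 with DMSO, 8.50, 8.34 and 8.37 with Torin 1 and 8.65, 8.51 and 8.35 with PP242. The DMSO arrays all lay under the unstimulated ones, while the inhibitor arrays overlapped with them. The difference of -0.20 on activation (SE 0.105, 95% interval -0.43 to 0.02, adjusted p = 0.191) was not called, nor was any other comparison of this gene.

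**Figure D1:**
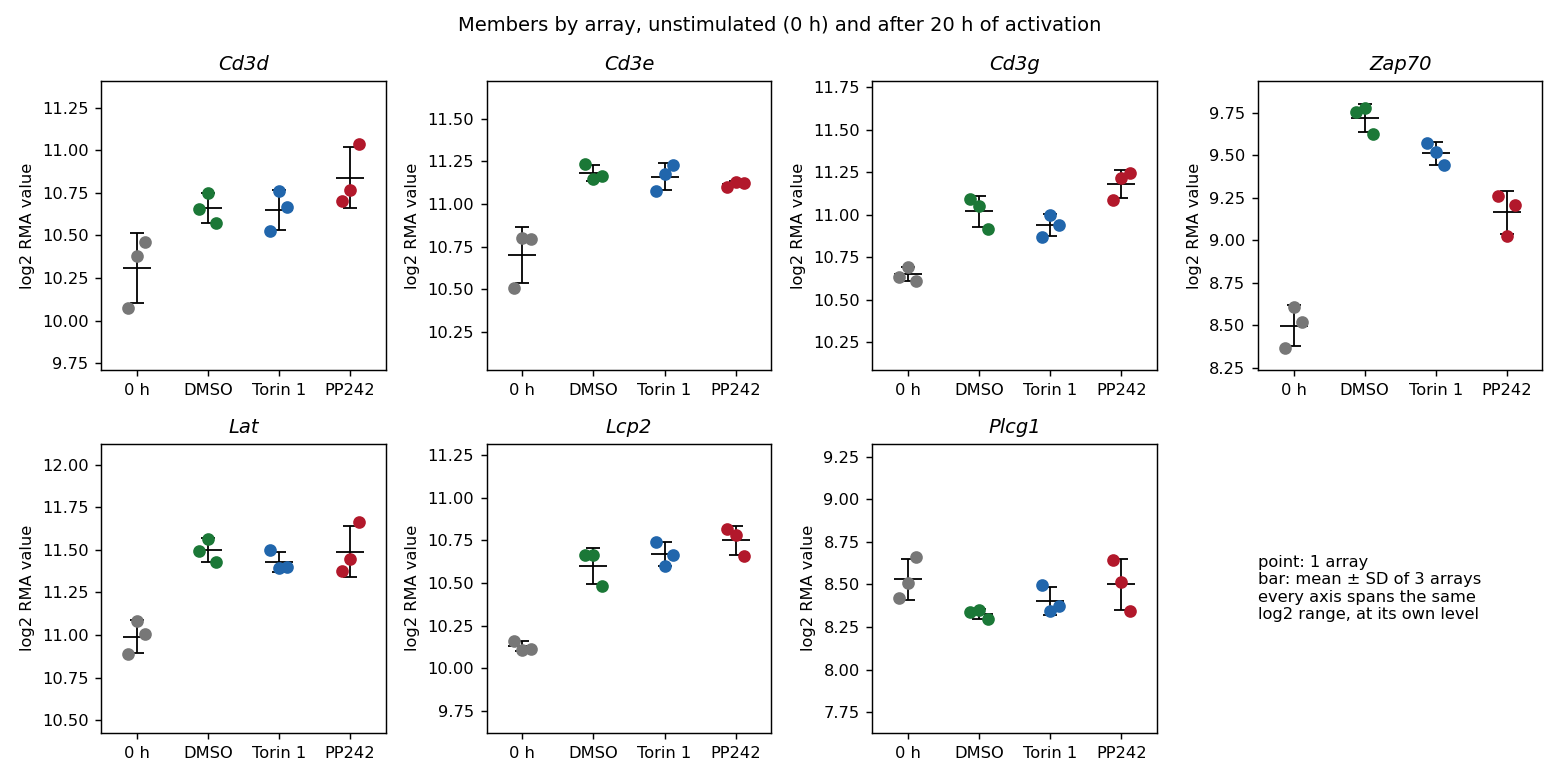
Log2 RMA value (y axis) of each of the 7 measured genes in the 12 arrays, by group (x axis: unstimulated at 0 h, and 20 h with DMSO, Torin 1 or PP242). Points are arrays and bars the mean ± SD of 3 arrays, and each panel spans the same log2 range at its own level; Zap70 rises from a mean of 8.50 to 9.72 with DMSO and stands at 9.16 with PP242, while Plcg1 stays between 8.30 and 8.66.

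The letters in front of the starts of 4 of these genes are shown. The windows are from RefSeq (GRCm38.p6), 250 bases before to 50 after each listed start, and the table has 12 of them for the 9 genes, since Zap70 has 3 listed starts and Lck 2. Cd3g, Cd3d and Cd3e are neighbours on chromosome 9, and Cd3g and Cd3d are read away from each other from starts 1355 bases apart. The 4 windows below are those of these 3 neighbours, of which Cd3d was not called on activation, and of the first listed start of Zap70, the gene with the largest change. Those of Lat and Lcp2, also called, were searched but are not printed. Capitals mark the letters AGGAAG, a core of sites for ETS family factors, or CTTCCT, the same letters on the other strand.
Zap70, chr1:36761548-36761847, + strand: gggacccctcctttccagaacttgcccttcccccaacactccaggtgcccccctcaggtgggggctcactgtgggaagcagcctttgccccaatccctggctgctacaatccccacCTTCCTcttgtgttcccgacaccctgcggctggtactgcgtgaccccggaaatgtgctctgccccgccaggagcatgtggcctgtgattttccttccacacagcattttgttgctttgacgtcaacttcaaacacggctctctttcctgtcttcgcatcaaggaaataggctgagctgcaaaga
Cd3g, chr9:44980382-44980681, - strand: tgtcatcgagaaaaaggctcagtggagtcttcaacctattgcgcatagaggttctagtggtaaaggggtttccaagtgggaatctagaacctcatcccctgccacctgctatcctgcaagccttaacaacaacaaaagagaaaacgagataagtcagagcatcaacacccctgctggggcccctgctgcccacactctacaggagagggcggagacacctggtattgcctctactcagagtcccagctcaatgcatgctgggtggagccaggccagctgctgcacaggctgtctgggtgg
Cd3d, chr9:44981536-44981835, + strand: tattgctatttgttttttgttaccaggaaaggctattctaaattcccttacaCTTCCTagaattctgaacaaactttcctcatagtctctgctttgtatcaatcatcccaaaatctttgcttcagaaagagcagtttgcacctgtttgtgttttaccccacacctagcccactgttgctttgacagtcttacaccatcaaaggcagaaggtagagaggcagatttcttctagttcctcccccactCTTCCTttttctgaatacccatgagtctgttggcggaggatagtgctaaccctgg
Cd3e, chr9:45009562-45009861, - strand: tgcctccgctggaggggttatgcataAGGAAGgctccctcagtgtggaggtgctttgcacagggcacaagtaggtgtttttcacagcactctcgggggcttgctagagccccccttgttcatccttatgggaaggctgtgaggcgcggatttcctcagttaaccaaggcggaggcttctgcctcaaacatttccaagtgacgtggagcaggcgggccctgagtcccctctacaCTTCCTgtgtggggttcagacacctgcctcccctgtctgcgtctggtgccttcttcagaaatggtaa

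Positions are counted from the start, with no base numbered 0. The Cd3d window held the ETS letters at -198 and -5 and the Cd3e window at -224 and -17. The first Zap70 window held them once, at -134. Cd3g had none in its window. On activation Cd3g changed by 0.38, Cd3e by 0.48 and Cd3d by 0.35 (not called). A link between the letters and the changes was not tested. Over the 9 genes, which include the unmeasured Cd247 and Lck, the ETS letters were in 9 of 12 windows. They were in 35.4% of the 32851 windows of the same length in the table. By gene they were in 7 (all but Cd3g and Plcg1), and the share over all genes was not computed. TGTGGT, a RUNX core, was in 3 of the 12 windows, against 16.8% of all. CTTTGA, bound by TCF1 and LEF1, was in 4, against 16.0%. GGAAA, an NFAT core, was in 7, against 61.3%. MYC letters (CACGTG) were in 2, against 7.15%, and AP-1 letters (TGANTCA) in 0, against 7.81% of all windows. All were searched on both strands, and ETS and NFAT letters can share an end base, as CTTTGA and TGANTCA can share TGA. A match is a description of the letters and not a bound site.

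**Figure D2:**
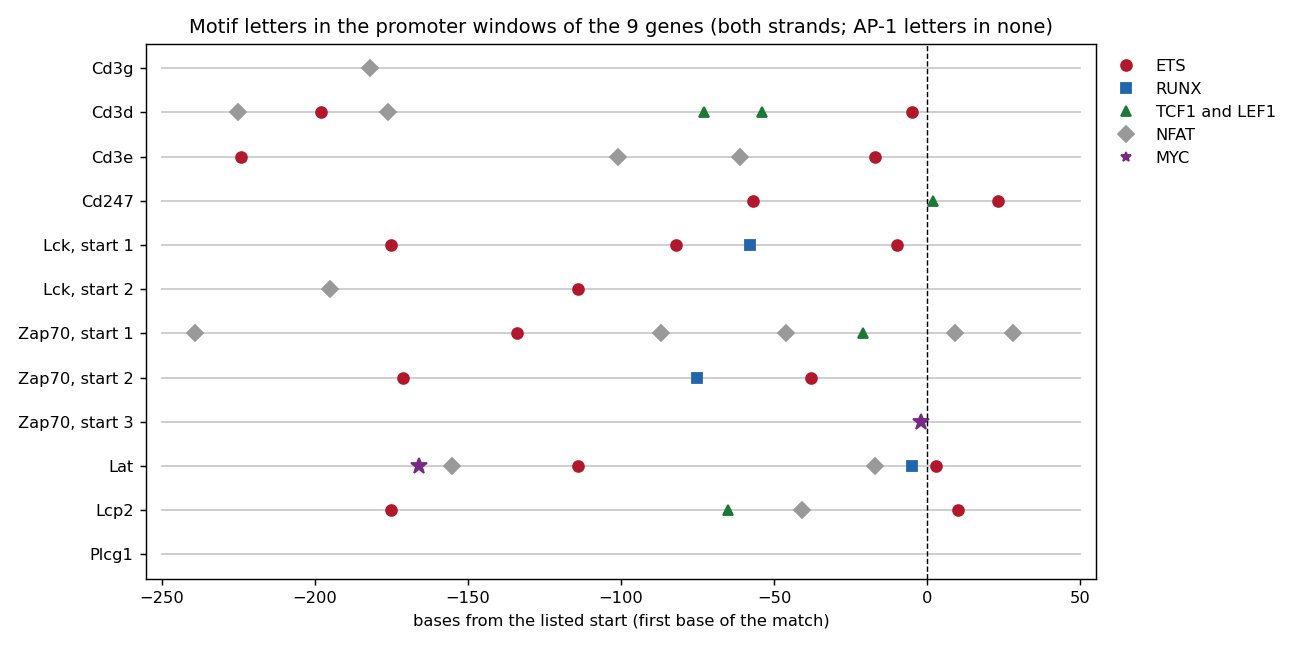
Positions of the motif letters (marks, by motif) in the 12 promoter windows of the 9 genes (rows). The x axis gives bases from the listed start, with no base numbered 0. ETS letters lie in 9 of the 12 windows, with none for Cd3g or Plcg1, and no window holds the AP-1 letters.

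Torin 1 left all 7 genes uncalled against DMSO. The changes lay between -0.21 (Zap70) and 0.08 (Plcg1), with a median of -0.021 against 0.013 over all genes. Of all genes tested, 3.33% were called higher and 4.79% lower with Torin 1. Zap70 had no overlap between the groups, with a difference of -0.21 (SE 0.103, 95% interval -0.43 to 0.01, adjusted p = 0.277). For the other 6 genes the arrays of the 2 groups overlapped, and 24.6% of all genes had no overlap, so that 1 of 7 is below that share. The 95% intervals of the 7 genes together ran from -0.43 to 0.30.

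PP242 lowered Zap70 and no other of the 7 genes. Zap70 fell by 0.56 against DMSO (SE 0.103, 95% interval -0.78 to -0.33, adjusted p = 0.00195), which is 1.47-fold lower, with each PP242 array under each DMSO array. The call held in all 22 alternative settings, with changes from -0.61 to -0.48. For comparison, 7.38% of all genes were called higher and 9.27% lower with PP242. The other 6 differences lay between -0.06 (Cd3e) and 0.18 (Cd3d), none of them called. Cd3e was the only other gene without overlap, with the PP242 arrays just under the DMSO arrays, by a mean of 0.06 (adjusted p = 0.742). Of all genes, 30.2% had no overlap in this comparison, against 2 of these 7.

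The 2 inhibitors were given at different doses, so that their direct comparison is of the treatments as given. None of the 7 genes was called between PP242 and Torin 1, a comparison in which 0.162% of all genes were higher and 0.23% lower with PP242. Zap70 was lower with PP242 by a mean of 0.35 (SE 0.103, adjusted p = 0.179), with no overlap and an interval of -0.57 to -0.13. Cd3g was higher with PP242 by 0.25 (SE 0.0937, interval 0.05 to 0.45, adjusted p = 0.302), also with no overlap, which 17% of all genes had between these groups. An effect on Zap70 was thus past the threshold against DMSO for one inhibitor only, and the difference between the inhibitors itself was not.

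**Figure D3:**
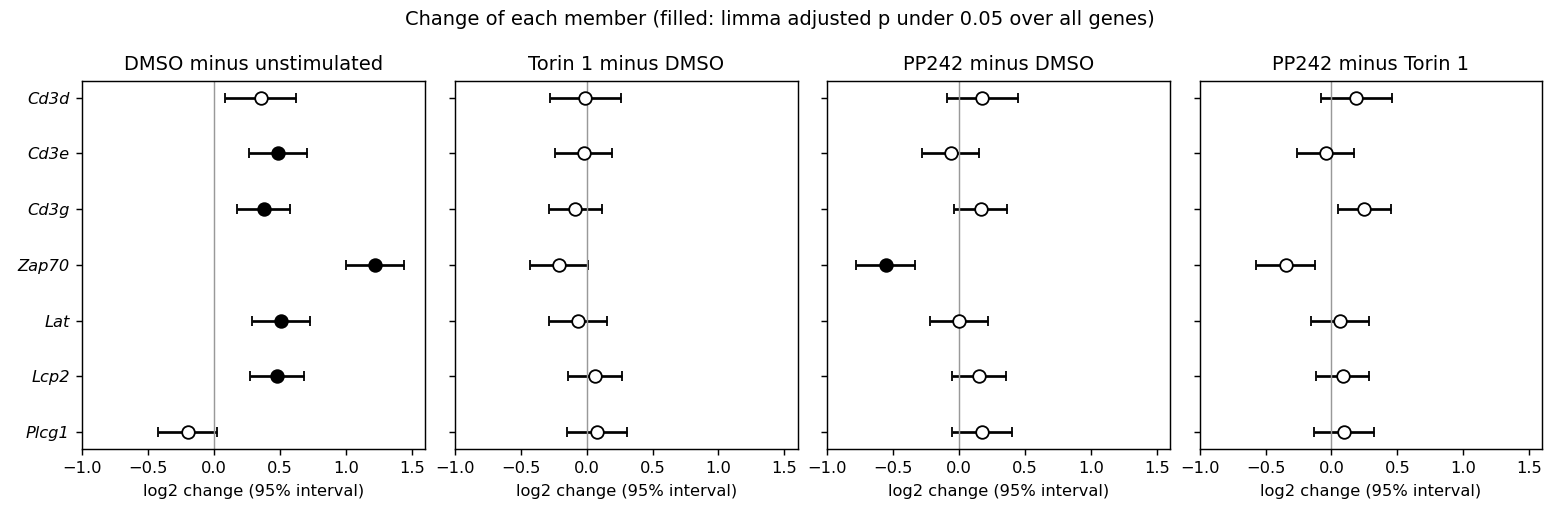
Log2 change (x axis) with its 95% interval for each of the 7 measured genes (rows) in 4 comparisons (panels). Filled points have a limma adjusted p under 0.05 over all genes: 5 genes in DMSO minus unstimulated, none in Torin 1 minus DMSO, Zap70 alone in PP242 minus DMSO and none in PP242 minus Torin 1.

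Against unstimulated cells, most of the genes stayed higher in the presence of either inhibitor. With Torin 1, 4 of the 7 were called higher (Cd3e, Zap70, Lat and Lcp2), where 4.42% of all genes were higher and 3.31% lower, and the median change was 0.437. With PP242, 6 of the 7 were called higher, all but Plcg1, where 1.73% of all genes were higher and 1.34% lower, and the median change was 0.531. These comparisons use the same unstimulated arrays as the comparison with DMSO, and so are not separate evidence of a rise.

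Zap70 was 2.02-fold higher than unstimulated with Torin 1 (log2 change 1.01, SE 0.103, adjusted p = 4.1e-05). With PP242 it was 1.59-fold higher (0.66, SE 0.103, adjusted p = 0.00238). Its level with PP242 thus lay between those of unstimulated and DMSO-treated activated cells. Lcp2 was 1.46-fold higher with Torin 1 (0.54, SE 0.0948, adjusted p = 0.00252) and 1.54-fold higher with PP242 (0.63, SE 0.0948, adjusted p = 0.00197). Cd3g was 1.45-fold higher with PP242 (adjusted p = 0.00538), while its 0.29 with Torin 1 was not called (adjusted p = 0.0772).

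The calls of the other genes in these comparisons lay near the threshold. Cd3e had adjusted p = 0.0117 with Torin 1 and 0.0386 with PP242, Lat had 0.0174 and 0.0157, and Cd3d had 0.0347 with PP242. Without unstimulated replicate 1, which held the lowest value of Cd3d, Cd3e, Zap70, Lat and Plcg1 in its group, 2 genes were called with Torin 1 and 3 with PP242. Without PP242 replicate 3, 3 genes were called with PP242.

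Over the 12 arrays the genes other than Plcg1 varied together. Their 15 pairs had Pearson correlations from 0.602 to 0.892 with a median of 0.849, and much of this is the shared difference between unstimulated and activated arrays. As deviations from the group means the same pairs ran from -0.441 to 0.693 with a median of 0.322. The highest of these was Cd3d with Lat, and the lowest was Cd3d with Lcp2. Plcg1 had correlations from -0.556 to -0.196 with the other 6. These are descriptions over 12 arrays that share groups and normalization.

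Of all other named genes, the one whose values over the 12 arrays were most like those of Zap70 was Gpatch4 (r = 0.993). It averaged 6.08 in unstimulated cells, 7.80 with DMSO, 7.44 with Torin 1 and 6.99 with PP242, the same order of groups. The next was Ubash3b (r = 0.989). For the CD3 chains the most alike genes were Timp2 (Cd3d, r = 0.964), Rcl1 (Cd3e, r = 0.969) and the chemokine receptor gene Ccr4 (Cd3g, r = 0.911). Exosc7 was most like Lat (r = 0.955) and Ipcef1 most like Lcp2 (r = 0.964). Iqsec1 was most like Plcg1 (r = 0.919), although its own values had an SD of only 0.109 over the arrays. The next most alike were Rer1 for Cd3d (0.927), Socs2 for Cd3e (0.965) and Srgn for Cd3g (0.909). For Lat it was Gpr18 (0.955), for Lcp2 Sh3bp2 (0.962) and for Plcg1 Arrb2 (0.917). Each is among the highest of many correlations, and a shared control was not tested.

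The rest of the pathway did not move as one with these genes. Of 131 further pathway genes in 6 lists, written from textbook knowledge, 113 had a row. Beside the list counts stand the shares of all genes: 11.8% were called higher and 12.1% lower on activation. Against DMSO these shares were 3.33% and 4.79% with Torin 1 and 7.38% and 9.27% with PP242. The lists below share the DMSO arrays between activation and the inhibitor comparisons, and each comparison is given by its own values. With each array centred on its median, a setting tried for the lists after seeing the data, 0 receptor, kinase or adaptor genes were higher with Torin 1, and 5 adaptors instead of 9 fell on activation.

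Of 15 measured receptor, coreceptor and costimulatory genes, 7 rose and 3 fell on activation, with a median change of 0.397. The rises were Tespa1, needed for receptor signalling in thymocytes (1.23, adjusted p = 4.73e-06), Cd6 (1.01) and Cd5 (0.96), which encode inhibitory surface receptors tied to the complex, Ptprcap (0.94), whose product binds the phosphatase CD45, the costimulatory receptor gene Cd28 (0.74), Cd226 (0.53) and the coreceptor gene Cd4, from a mean of 8.90 to one of 9.36. The falls were Themis (-0.77), which acts in thymocyte selection, the inhibitory receptor gene Ctla4 (-0.53) and the adaptor gene Trat1 (-0.41). Torin 1 raised 1 of the 15, Cd27 (0.35), and lowered Cd226 (-0.74) and Thy1 (-0.69). PP242 raised Trat1 (1.00, adjusted p = 2.36e-05), Themis (0.68), Cd27 (0.37), Ctla4 (0.34) and Ptprc (0.29), and lowered Thy1 (-0.85) and Cd226 (-0.72). Of these PP242 calls, that of Ptprc held in 9 of 22 alternative settings, that of Ctla4 in 16 and the others in 21 or 22.

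Of 13 other kinases and their subunits, 2 rose and 6 fell on activation, with a median of -0.242. Txk, a Tec family kinase, fell by 1.58 (adjusted p = 3.16e-07), Tec by 0.69, the PI3K subunit gene Pik3r1 by 0.65 and Prkcq, which encodes protein kinase C-theta, by 0.54. Syk, the relative of Zap70 best known from B cells, fell by 0.49 (adjusted p = 0.00331). Its means, 5.28 unstimulated and 4.79 with DMSO, lay near the median of all values (5.01). The rises were Csk (0.44, adjusted p = 0.00546), whose product restrains Lck, and Map4k1 (0.39, adjusted p = 0.00786), whose product acts against SLP-76. Torin 1 raised Stk17b (0.37), Prkcq (0.35) and Pik3cd (0.34) and lowered none. The calls of Stk17b, Prkcq and Pik3cd with Torin 1 held in 10, 9 and 12 of 22 alternative settings. PP242 raised 7, among them Txk (0.81, adjusted p = 0.00021) and Prkcq (0.72), and lowered Map4k1 (-0.38) and Akt1 (-0.36).

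Of 22 other adaptors and partners, 2 rose and 9 fell on activation, with a median of -0.156, beside the rises of Lat and Lcp2. Fyb, which encodes the SLP-76 partner ADAP, fell by 1.08 (adjusted p = 2.73e-06), Grap2, which encodes the Gads protein that links SLP-76 to LAT, by 1.06 (adjusted p = 1.34e-05), and Gab3 by 0.96. Sh3bp2 rose by 2.06 (adjusted p = 2.5e-08) and Vav3 by 0.74. Torin 1 raised Grap2 (0.43) and Wasf2 (0.34) and lowered Sh2d1a (-0.77) and Was (-0.32). With Torin 1 the calls of Grap2 and Was each held in 11 of 22 alternative settings, that of Wasf2 in 15 and that of Sh2d1a in 22. PP242 raised 6, Skap1 (0.90), Gab3 (0.87), Grap2 (0.70), Fyb (0.70), Wipf1 (0.52) and Wasf2 (0.46), and lowered Was (-0.35).

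The list of the calcium and diacylglycerol arms also held the Ras activator genes Sos1 and Sos2, so not all of it is downstream of Plcg1. Of its 22 measured genes, 3 rose on activation and 9 fell, with a median of -0.21. The rises were Malt1 (1.06, adjusted p = 3.85e-06), the paracaspase that relays the signal to NF-kappaB, the transcription factor gene Nfatc1 (0.85) and the calcium channel gene Orai1 (0.41). The falls included Rasgrp2 (-1.20, adjusted p = 8.82e-05), Ppp3ca, a catalytic subunit of calcineurin (-1.04), and Sos1 (-0.64). Torin 1 raised Rasgrp2 (0.59) and Ppp3ca (0.42), calls that held in 14 and 18 of 22 alternative settings. PP242 raised 9 and lowered none, with a median of 0.243. Over the alternatives the number raised ran from 4 to 10, with 4 at adjusted p under 0.01. The call of Nfatc3 held in 6 of 22 settings, that of Sos1 in 7, that of Ppp3cb in 8 and that of Malt1 in 13. The other calls held more often.

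Of 28 negative regulators, 5 rose and 12 fell on activation, with a median of -0.262. The rises were Ubash3b (1.85, adjusted p = 7.46e-08), Sla (1.59), which encodes an adaptor that promotes loss of receptor chains, the phosphatase genes Ptpn6 (1.36) and Ptpn7 (1.33), and Tagap (1.06). The falls included Rasa3 (-1.04, adjusted p = 2.33e-06). Torin 1 raised 7 of them and lowered Ptpn7 (-0.74) and Ptpn6 (-0.49). PP242 raised 12 and lowered Ubash3b (-0.85, adjusted p = 0.000136), Ptpn7 (-0.73), Ptpn6 (-0.55) and Socs1 (-0.46).

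A last list held relatives of these genes that serve other immune receptors, among them Btk, Blnk, Plcg2 and Lat2. Of 13 measured, Cd79b alone was called on activation (-0.55, adjusted p = 0.0124), and none was called with Torin 1 or with PP242 against DMSO, where most of all genes were uncalled too. Cd79b is also a B cell marker, and its mean was 5.65 in unstimulated cells and 5.10 with DMSO.

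**Figure D4:**
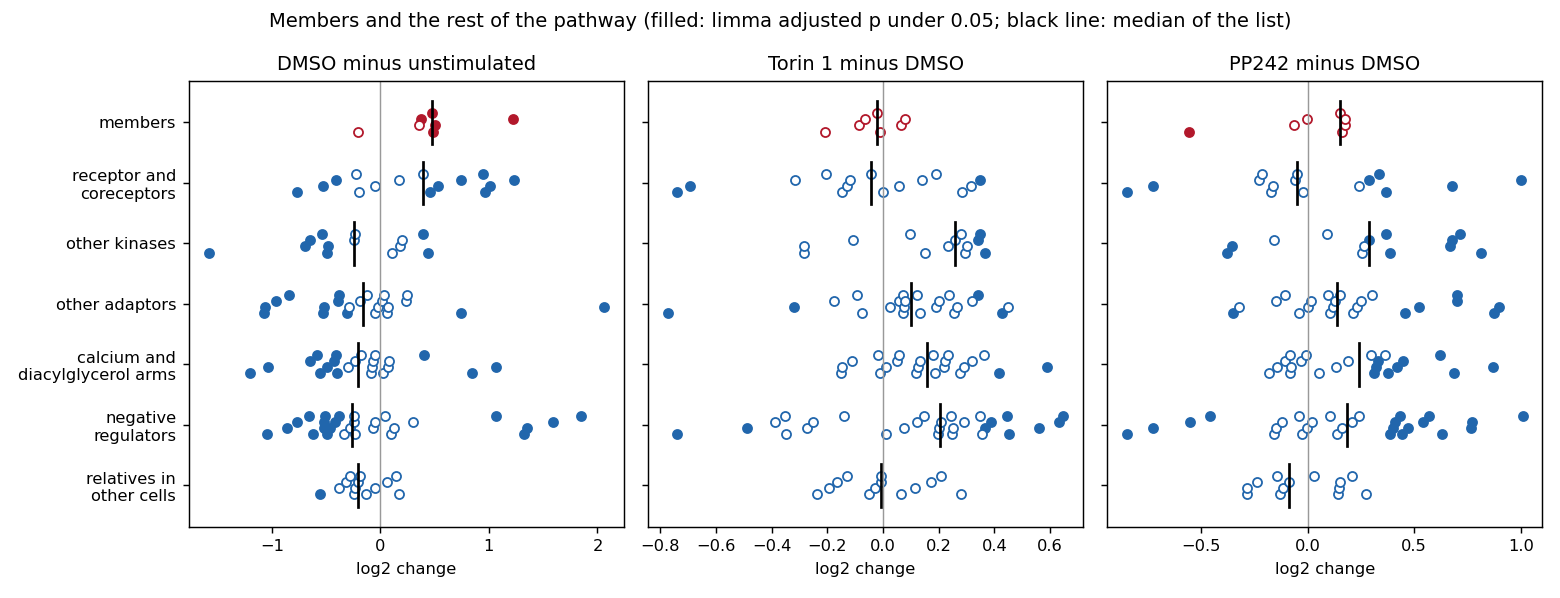
Log2 change (x axis) of the 7 measured genes (red) and of the genes of 6 pathway lists (blue), by list (rows) and comparison (panels, each with its own x axis). Each point is a gene, filled at a limma adjusted p under 0.05, and black lines are medians; on activation the median of the 7 genes is 0.476 and that of the negative regulators is -0.262, and with PP242 they are 0.15 and 0.185.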

How the data were processed

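The authors deposited RMA values on the log2 scale for 12 arrays, made from RNA amplified with the WT Pico protocol. The submitters' notes name Partek 6.6. RMA compresses large differences and brings the arrays to like distributions, so that values are relative within a gene; they carry no detection calls. The build behind the rows is not given in the sources used here. Rows paired with exactly 1 symbol in the platform annotation (23521 of 41345) were used, with the highest mean row for each gene, which left 22180 genes. Groups came from the sample labels. All 4 group means were fitted with limma 3.58.1 (R 4.3.3, lmFit and eBayes) and no filter on dim genes, and 6 contrasts were tested two-sided. Simulated data with known changes were used to test the fit. The genes, lists and tests were chosen with earlier results of these data known. Named list genes are, for each list, up to 4 called genes with the largest change on activation and each gene of a count of 5 or fewer. Cd4, Foxp3, the other called Treg markers, further called markers of other cells, Cd8a, Eomes and a few PP242 examples were added after their values were seen. So were the relatives Btk, Blnk, Plcg2 and Lat2 and the next most alike gene of each member. For each member the named gene with the highest correlation is given, and of each marker list the brightest. Motifs were searched in RefSeq promoter windows with Python 3.11.15 and pandas 2.3.3. The alternatives were quantile normalization, centring, a filter on dim genes (12371 left), the median row, all rows, trend and robust or no empirical Bayes step, only the 2 groups compared, array weights, a replicate block, adjusted p under 0.01, and leaving out each array. No column of the table was left out.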

Additional observations from a re-analysis of the deposited data

Results flagged for a closer look

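Within the pathway lists, 4 genes differed between the inhibitors, which were given at different doses. Skap1 was higher with PP242 than with Torin 1 by 0.70 (limma adjusted p = 0.0144), a call that held in 17 of 22 alternatives. Trat1 was higher by 0.72 (adjusted p = 0.0108, 20 of 22) and Themis by 0.62 (adjusted p = 0.0365, 10 of 22). Ubash3b was lower with PP242, with a log2 difference of -0.60 (adjusted p = 0.0329, 12 of 22). The arrays of each group are 3, and the adjusted p of these genes over the alternatives reached 0.108 for Skap1, 0.0731 for Trat1, 0.149 for Themis and 0.119 for Ubash3b.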

How the results depend on the processing

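For the 7 genes, the counts called on activation (5), with Torin 1 (0) and with PP242 against DMSO (1) and between the inhibitors (0) stayed within 1.5 times under all 23 alternatives. The 4 called with Torin 1 against unstimulated cells became 2 at adjusted p under 0.01 and 2 to 4 when single arrays were left out, with 2 without unstimulated replicate 1. The 6 called with PP242 against unstimulated cells became 3 with only the 2 groups compared, 3 at adjusted p under 0.01, and 3 to 6 when single arrays were left out. The cause was not tested beyond the fewer arrays or the stricter threshold. Changes that were close to 0 and not called turned sign: Cd3d with Torin 1 against DMSO to 0.0056 under quantile normalization and over a range of -0.0647 to 0.0526 with single arrays left out, Cd3e likewise over -0.0563 to 0.0220, Lat with PP242 over -0.0847 to 0.0590 against DMSO and -0.0184 to 0.125 against Torin 1, and Plcg1 with PP242 against unstimulated cells over -0.100 to 0.04998.

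Deviations from the group means correlated at -0.072 to 0.059 between arrays of the same replicate number (18 pairs). Between other arrays they correlated at -0.078 to 0.111 (36 pairs). Pairing by number was thus not seen, but these values cannot show whether samples of the same number were prepared together. With the number as a replicate block, 6 of the 7 genes were called on activation, 0 with Torin 1, 1 with PP242 against DMSO, 0 between the inhibitors, and 4 and 5 with Torin 1 and PP242 against unstimulated cells; over all genes the calls went from 5290 to 5161 on activation and from 87 to 60 between the inhibitors. Centring moved the median of all genes by under 0.1 in each comparison. Calls of list genes with Torin 1 were less stable: the number of negative regulators called higher, 7 of 28, ran from 4 to 10 over the alternatives, which were chosen after seeing the data. With SEs near 0.10, 3 arrays a group limit what can be called.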
